A study of Homo sapiens with 4 samples.

Results

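The long arm of chromosome 17, from the centromere to 64.9 Mb, was represented in the screen by 1960 guides against 490 genes, out of 77441 guides and 19112 gene symbols in the table. The stretch was chosen by measured values, the log2 fold changes of HQ461 over DMSO set out by position along the arm. A high level of the stretch as a whole is therefore what selected it, and is given here as a description, without a test. Genes were taken where GENCODE 44 on GRCh38 places the middle of the gene between 24.7 and 64.9 Mb of chromosome 17. CDK12, PPM1D, TAOK1, NF1, BRCA1, ATXN7L3, KAT2A and PSME3 were left out, as were genes whose symbols start with KRT, PSM, RPL, MED, MRP or INTS.

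A549 cells, an established human lung adenocarcinoma line, carried the Brunello library, in which 4 guides direct Cas9 to each gene and 1000 control guides have no target. The HQ461 group was kept in 4 µM HQ461 for 3 weeks. HQ461 is a cytotoxic small molecule, and the screen asked which knockouts let cells survive it. The DMSO group was kept in 0.1% DMSO for the same time, and cells of both groups had been infected from the same library and kept in puromycin for 1 week beforehand. The labels give 2 biological replicates per condition, and the table holds 1 column per condition, so no difference below has a replicate check and no p-value is given.

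In such a pool, the guide is the record of the knockout: cells that divide faster leave more copies of their guide in the DNA. A guide can also act without its gene. Each Cas9 cut is a double-strand break that can slow a cell with a working damage checkpoint, and a site present in extra copies is cut more often. Guides that lie next to each other on a chromosome and against genes of unrelated function share their position and their copy number, but not their targets. The table gives guides by number and gene, so each guide is known here by its gene's position, and no guide sequence is printed.

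With HQ461, a guide of the stretch had a median of 258.5 reads, and with DMSO a median of 148 reads. After scaling each column by median ratios, the medians were 311 normalized reads with HQ461 and 124 with DMSO. Guides against genes of the other chromosomes had medians of 127 normalized reads with HQ461 and 127.5 with DMSO. With DMSO, the guides of the stretch thus lay close to the others, and the separation was in the HQ461 column. The control guides, which have no target, had medians of 443 normalized reads with HQ461 and 437 with DMSO. In both columns they lay above the guides of the stretch and above those of other chromosomes. The cause was not tested. The 1960 guides are 2.53% of the guides in the table. Of 16127620 reads in the HQ461 column they held 4.61% (Clopper-Pearson 95% interval from 4.60% to 4.62%), and of 14428845 reads in the DMSO column 2.37% (from 2.37% to 2.38%). These intervals cover counting error only, since reads from PCR are not independent molecules.

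Log2 fold changes are HQ461 over DMSO, with 1 added to each normalized read count, and a gene's value is the median over its guides. The guides of the stretch had a median log2 fold change of 1.28, with the middle 50% of them between 0.55 and 2.02. Of 1955 guides with reads in at least 1 column, 1694 were above 0 and 1206, or 61.7%, were up 2-fold or more, where 19.5% of all targeting guides were. At the other end, 71 guides, or 3.63%, were down 2-fold or more, against 18.8% of guides on the other chromosomes. The spread among single guides was as wide as elsewhere. Their SD was 1.25 on the log2 scale, against 1.30 for guides of the other chromosomes and 0.87 for the controls. The controls had more reads, with a median of 437 normalized reads with DMSO. Among guides with 200 or more such reads, the SD was 0.88 in the stretch and 0.96 on other chromosomes.

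By gene, 325 of 490, or 66.3%, had a median up 2-fold or more, where 9.01% of all 19111 genes with a value did. Only 3 genes, or 0.612%, were down 2-fold or more, where 7.69% of all genes were. The 3 were HEXIM1, EFTUD2 and HEATR6. In all, 469 gene medians lay above 0 and 21 below. Both shares used the contrast that selected the stretch, so they describe how evenly the rise is spread over its genes rather than test it. Scaling by total reads in place of median ratios moved the median of all targeting guides by -0.68. Under that scaling 134 genes of the stretch were up 2-fold or more and 10 down, and in the whole library 520 were up and 6138 down, in place of 1722 and 1470.

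The rise was seen in most guides of most genes. Of 486 genes with 4 guides measured, 297, or 61.1%, had all 4 above 0, where 10.3% of such genes in the library did. A further 133 genes had 3 guides above 0, 45 had 2, 10 had 1, and 1 gene, HEATR6, had none. For 87 genes, or 17.9%, each of the 4 guides was up 2-fold or more, where 1.51% of genes in the library reached this. These shares too use the contrast that selected the stretch, where 86.6% of guides were above 0. Whether the guides of a gene agree beyond that level was not tested. IFI35, an interferon-induced gene, had the narrowest range of guide values among genes whose 4 guides each had 30 or more normalized reads with DMSO, from 0.96 to 1.11. Next came TP53I13, from 1.77 to 2.00, and SP2, a transcription factor of the SP family, from 0.97 to 1.23. These 3 genes were picked for their narrow range after the values were seen. The median SD among the guides of a gene was 0.91 in the stretch and 0.96 on the other chromosomes.

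Set beside its neighbours, the stretch had a median gene log2 fold change of 1.30, against 0.81 for 321 genes of the short arm, 0.65 for 223 genes of the long arm beyond 64.9 Mb, and -0.06 for 17783 genes of other chromosomes. The differences are 0.49, 0.65 and 1.36 on the log2 scale. They use the contrast that selected the stretch, so they describe it and were not tested. The share of genes up 2-fold or more was 66.3% in the stretch, 37.4% on the short arm, 24.7% beyond the far edge and 6.44% on other chromosomes. The short arm includes UBE2G1, a ubiquitin-conjugating enzyme, which had the highest value of the table at 10.49, so a median rather than a mean was compared.

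Along the stretch the level was uneven, and its highest part lay next to the centromere. The 48 genes at 25 to 30 Mb had a median log2 fold change of 1.91 (middle 50% from 1.59 to 2.20), and 44 of them were up 2-fold or more. All 48 were above 0, from DHRS13 at 0.25 to UNC119 at 3.29. Their guides had medians of 538 normalized reads with HQ461 and 136 with DMSO. From there to the far edge the medians per 5 Mb stayed within a narrower range. They were 1.33 for 41 genes at 30 to 35 Mb, 1.30 for 87 genes at 35 to 40 Mb and 1.27 for 111 genes at 40 to 45 Mb. Further out they were 1.25 for 80 genes at 45 to 50 Mb, 1.19 for 32 at 50 to 55 Mb, 1.22 for 45 at 55 to 60 Mb and 1.08 for 46 at 60 to 65 Mb. The guides of these 7 outer bins had DMSO medians of 107 to 143 normalized reads, around the 136 of the proximal bin. Across the 490 genes, position and log2 fold change had a Spearman rho of -0.24 and a Pearson r of -0.23, which is a description over genes that share both libraries. The values of adjacent genes had a rho of 0.11 over 489 pairs, which includes whatever the position trend adds. Without each gene's top guide the medians at 45 to 50 and 50 to 55 Mb were 0.92 and 0.72. Those at 55 to 60 and 60 to 65 Mb were 0.97 and 0.69, so all of these were under 2-fold. The bins from 30 to 45 Mb then had medians of 1.02 to 1.06, and the bin at 25 to 30 Mb 1.73. Leaving out top guides lowers values elsewhere too. The median of genes on other chromosomes was then -0.36, in place of -0.06. The difference between the stretch and other chromosomes was 1.39, in place of 1.36.

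The order of bins hides local highs and lows, which were looked for in windows of 15 successive genes. Of 476 such windows, 414 had a median at or above 1. The highest median, 2.01, was shared by 5 overlapping windows between 28335602 and 28855232, each with all 15 genes up 2-fold or more. The first of them runs from TNFAIP1 to KIAA0100. Beyond the proximal part the highest median was 1.75, shared by 6 overlapping windows between 39603536 and 40195656, each with 13 of 15 genes up. The first of these runs from NEUROD2 to GSDMA. The lowest median, 0.66, was shared by 5 overlapping windows between 45844881 and 47685505, with 5 or 6 of 15 genes up. A window clear of these, from UNC45B to TAF15 at 35147817 to 35864615, had a median of 0.73.

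At the centromere edge the stretch opens with WSB1, at 27294076 to 27315926, and the table has no placed gene between it and KCNJ18 on the short arm, which ends at 21704612. The first 5 genes inside were WSB1 at a log2 fold change of 0.95, KSR1 at 2.09, LGALS9 at 2.82, NOS2 at 2.41 and LYRM9 at 1.88. The last 5 genes of the short arm had values of 0.55 for NATD1, 2.29 for MAP2K3, 1.55 for KCNJ12, 0.62 for C17orf51 and 1.57 for KCNJ18. The 2 sets overlap. The 12 genes of the short arm at 20 to 25 Mb had a median of 1.04, between the 1.91 of the proximal bin of the stretch and the 0.81 of the whole short arm.

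At the far edge the last 5 genes inside were POLG2 at 0.36, DDX5 at 3.49, CEP95 at 1.51, SMURF2 at 0.89 and LRRC37A3 at 2.81. The first 5 outside were GNA13 at 0.28, RGS9 at 0.66, AXIN2 at 0.56, CEP112 at 0.94 and APOH at 0.43. Those outside were all under 1, but POLG2 and SMURF2 inside lay within their range. The stretch was chosen from these same values by position, so a lower level outside its edge is part of that choice. POLG2 had 4, 35, 10 and 30 reads with DMSO and guide values from -3.22 to 4.51, so its value is uncertain. LRRC37A3, from 64854130 to 64919480, straddles the edge and belongs to a family of near-identical copies. Its guides had 14, 22, 130 and 21 reads with HQ461, against 5, 0, 12 and 23 reads with DMSO, so its value rests on few reads. Beyond the edge the medians per 5 Mb were level, at 0.61, 0.68, 0.63 and 0.69 out to the end of the arm.

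Several genes of the proximal part, most of them among its highest, are described here as examples. UNC119, a chaperone of lipid-modified proteins, had 939, 1236, 2028 and 272 reads with HQ461, against 192, 129, 149 and 137 reads with DMSO. Every guide was higher with HQ461, and the log2 ratio of the summed, scaled reads was 3.41 (95% counting interval 3.29 to 3.53). ALDOC, an aldolase found mainly in brain, had 967, 1340, 1733 and 1351 reads with HQ461, against 380, 311, 156 and 318 reads with DMSO. For SLC13A2, a dicarboxylate transporter of kidney and gut, the reads were 1123, 356, 1226 and 1046 with HQ461, against 166, 93, 367 and 232 with DMSO. None of the 8 DMSO values of these last 2 genes reached the same guide's HQ461 value. NOS2, the inducible nitric oxide synthase, had 1377, 691, 826 and 403 reads with HQ461, against 174, 230, 279 and 88 with DMSO. KSR1, a scaffold of the RAF-MEK-ERK cascade, had guide values of 1.84 to 2.44, and FOXN1, the transcription factor of thymic epithelium, of 1.23 to 3.69. TNFAIP1, which links substrates to CUL3 ligases, had a value of 2.74, and CRYBA1, a crystallin of the eye lens, 3.05. Among these examples, genes of the eye lens, thymus, kidney and brain stood beside a kinase scaffold, at gene values between 2.09 and 3.05. Whether the 48 genes share a function was not tested.

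ERBB2, the receptor tyrosine kinase that is amplified in part of breast cancers, lies at 39687914 to 39730426. Its guides had 128, 494, 210 and 232 reads with HQ461, against 324, 71, 118 and 74 reads with DMSO. The first guide was below 0 and the others above, at guide values of -0.81, 3.30, 1.35 and 2.16, for a gene value of 1.75. Of 13 listed genes around it, between NEUROD2 and GSDMA, 11 were up 2-fold or more, with a median of 1.63. The share up 2-fold or more was 66.3% in the stretch and 9.01% in the library. These genes lie in a window already named as highest beyond the proximal part, so their level is not a separate observation. The 11 include GRB7, an adaptor protein, at 1.44, and PNMT, the last enzyme of adrenaline synthesis, at 2.21. Also among them are TCAP, a sarcomere protein, at 2.03, and IKZF3, a lymphoid transcription factor, at 2.29. The genes of this row that stayed under 2-fold were ZPBP2, a sperm protein, at 0.38 and PGAP3, which remodels lipid anchors, at 0.60. The value of ERBB2 lay within the range of these neighbours, from 0.38 to 2.29.

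Clusters of genes with narrow tissue use are spread along the stretch. Beside the counts per list stand the shares up 2-fold or more of 66.3% in the stretch and 9.01% in the library. The HOXB cluster encodes transcription factors that pattern the embryonic axis. Of its 10 genes, 8 were up 2-fold or more and 9 had all 4 guides above 0, with a median of 1.34 and a range from HOXB6 at 0.55 to HOXB9 at 2.43. HOXB13 had 789, 462, 575 and 664 reads with HQ461, against 529, 237, 425 and 390 reads with DMSO. Its guides were each higher and close to each other, from 0.96 to 1.49. HOXB9 was the highest, with 164, 1940, 94 and 290 reads with HQ461, against 38, 109, 131 and 86 reads with DMSO. A single guide of HOXB9 holds most of its reads with HQ461, and the third guide had fewer raw reads with HQ461 than with DMSO, at a scaled value of 0.05.

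The growth hormone genes, which are expressed in pituitary and placenta, lie at the other end of the stretch. Of these, 4 of 5 were up 2-fold or more, with a median of 1.51. All 5 are near-identical copies whose guides may cut at several sites, and they are counted again among such genes. CSHL1, a placental lactogen relative, had 158, 117, 237 and 791 reads with HQ461, against 52, 48, 73 and 220 reads with DMSO. GH2 was the lowest of them, at 0.59. The 3 haem peroxidases of blood cells and secretions were each up 2-fold or more with all guides above 0. MPO had a value of 1.43, LPO 1.46 and EPX 1.72. The CC chemokines of 17q12, which attract leukocytes, were lower. Of 16 measured, 7 were up 2-fold or more and 16 were above 0, with a median of 0.97, from CCL8 at 0.11 to CCL4 at 1.92. CCL8 had 209, 13, 56 and 213 reads with HQ461, against 103, 119, 96 and 223 reads with DMSO, a mixed picture of 2 guides above and 2 below 0. The 6 Schlafen genes had a median of 0.88, with SLFN11, which blocks stressed replication forks, at 1.51 and SLFN12 at -0.08. The chemokine and Schlafen genes had DMSO medians of 163 and 115 normalized reads, on either side of the 124 of the stretch.

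Genes with near-identical copies had the highest median of the lists described. Their guides may cut at several sites, and which copy a guide meets cannot be told from the table. Over 20 such genes the median was 1.98, with 16 up 2-fold or more and a DMSO median of 55.4 normalized reads, under the 124 of the stretch. TBC1D3C, a hominoid-specific gene, reached 3.24, with 361, 75, 226 and 207 reads with HQ461, against 40, 18, 45 and 18 reads with DMSO. TBC1D3 had 225, 395, 128 and 1163 reads with HQ461, against 58, 23, 47 and 133 reads with DMSO. All TBC1D3 genes measured were at or above 2.00, and LRRC37A and GH2 were among the lowest of the list, at 0.66 and 0.59. Whether a guide's number of sites plays a part was not tested. Without these genes the median over the remaining 470 genes of the stretch was 1.27.

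Genes of growth signalling followed the level of the stretch. Of 17 measured, 11 were up 2-fold or more, with a median of 1.23 and no gene below 0. STAT5B, which carries cytokine signals to the nucleus, was the highest at 2.27, with 571, 283, 185 and 380 reads with HQ461, against 104, 248, 29 and 184 reads with DMSO. Its neighbours STAT5A and STAT3 had values of 1.23 and 1.17. STAT3 had 77, 254, 67 and 218 reads with HQ461, against 60, 132, 115 and 51 reads with DMSO. RPS6KB1, the S6 kinase downstream of mTOR, had a value of 2.21, RARA, a retinoic acid receptor, 0.51, and WNT3, a secreted signal, 0.24. RARA and WNT3 lay under the middle 50% of the stretch, which runs from 0.81 to 1.73.

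UBE2G1 and DDB1, both of which serve ubiquitin ligases, had the highest values of the table at 10.49 and 10.25. A list of ubiquitin genes of the stretch was therefore read as a group. The list is not complete, and TNFAIP1, at 2.74, is not on it. Of 18 measured, 8 were up 2-fold or more and 13 were above 0, with a median of 0.98. SOCS7, a substrate receptor of CUL5 ligases, was the highest of the list and among the most even. It had 547, 687, 371 and 542 reads with HQ461, against 165, 200, 133 and 204 reads with DMSO. Its 4 guide values ran from 1.93 to 2.30. SPOP, a receptor of CUL3 ligases, had 110, 158, 158 and 217 reads with HQ461, against 74, 97, 61 and 84 reads with DMSO, a gene value of 1.55. TRIM37, a RING ligase of centrosome control, had a value of 1.01 and guides from 0.16 to 1.56. The 3 lay within the range of the genes without such a role.

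DCAF7, a WD40 scaffold protein named as a candidate DDB1 partner, stood lowest among the listed ubiquitin genes, at -0.21. Its guides had 2418, 103, 115 and 100 reads with HQ461, against 354, 265, 186 and 173 reads with DMSO. A single guide was far above the others, at 3.29, and the remaining guides ran from -0.83 to -0.17. The gene's summed reads gave a log2 ratio of 2.01 (counting interval 1.91 to 2.12), against the median of -0.21, because that guide outweighs the rest. UBE2Z, a ubiquitin-conjugating enzyme, had 48, 107, 119 and 87 reads with HQ461, against 100, 41, 183 and 139 reads with DMSO, for a value of -0.12. CDC27, a subunit of the anaphase-promoting complex, had a value of -0.07, and VPS25, of the ESCRT machinery, -0.03.

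The lowest gene of the stretch belongs to the transcription group. HEXIM1 holds P-TEFb, the kinase that releases paused RNA polymerase II, in its inactive 7SK particle. Its guides had 97, 6, 48 and 6 reads with HQ461, against 248, 103, 42 and 51 reads with DMSO. The gene value was -1.61, with guide values between -3.40 and 0.70, and the log2 ratio of summed reads was -0.97 (counting interval -1.24 to -0.71). HEXIM2, its paralogue, had a value of 1.78 with all 4 guides above 0. In the list of transcription and chromatin genes, 7 of 13 were up 2-fold or more and 1 was down. KAT7, a histone acetyltransferase, had a value of 2.66, TADA2A, a subunit of acetyltransferase complexes, 2.09, SUZ12, of the Polycomb repressive complex, 1.95, and SUPT6H, an elongation factor, 1.87. KAT7, SUZ12 and SUPT6H each had a guide that went the other way. For KAT7 it had 0 reads with HQ461, against 4 with DMSO, and for SUZ12 14 with HQ461, against 128 with DMSO. For SUPT6H it had 5 reads with HQ461, against 12 with DMSO. KANSL1, of the NSL acetyltransferase complex, had a value of -0.29 and TAF15, an RNA-binding protein, 0.17.

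Genes of core cell functions were the lower part of the stretch, and so were those of DNA repair and replication. The lists are not separate groups, since CDC6 and TOP2A are on both. The core list also shares DCAF7, CDC27 and VPS25 with the ubiquitin list, and SUPT6H, SUPT4H1 and SMARCE1 with the transcription list. Of 35 measured genes of core functions, 11 were up 2-fold or more, 24 were above 0 and 1 was down 2-fold or more, with a median of 0.59, which turned to -0.079 when scaled by total reads, was 0.15 without each gene's top guide and was 1.03 with summed reads. Of 9 repair and replication genes, 3 were up 2-fold or more, with a median of 0.36. It turned to -0.26 when scaled by total reads and to -0.17 without each gene's top guide, and was 0.67 with summed reads. Genes of other chromosomes had a median of -0.06, and of -0.74, -0.36 and 0.18 under these settings in the same order. The DMSO medians of the core and repair lists were 38.3 and 55.0 normalized reads, under the 124 of the stretch. Their values thus rest on fewer reads, and the part of this in the lower level was not tested. EFTUD2, a GTPase of the spliceosome, had 18, 18, 5 and 1 reads with HQ461, against 58, 12, 32 and 42 reads with DMSO, for a value of -1.55. CDC6, which loads the replicative helicase, had 118, 26, 32 and 206 reads with HQ461, against 157, 43, 52 and 240 reads with DMSO. Its guides lay between -0.19 and 0.31, the tightest of the low genes. TOP2A, the topoisomerase of dividing cells, had 6, 3 and 10 reads with HQ461, against 8, 3 and 21 reads with DMSO, and its remaining guide had none in either column. The log2 ratio of its summed reads was -0.23, and the counting interval of -1.13 to 0.64 holds no direction.

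Other genes of the core function list stood high. DDX5, an RNA helicase, was the highest gene of the stretch at 3.49. Its guides had 310, 584, 469 and 339 reads with HQ461, against 42, 55, 263 and 39 reads with DMSO, each higher with HQ461. UTP6, of the machinery that makes the small ribosomal subunit, had 153, 243, 18 and 7 reads with HQ461, against 34, 11, 3 and 0 reads with DMSO, for a value of 2.96. PIGS, which attaches lipid anchors to proteins, had a value of 1.99, and SPAG5, a protein of the mitotic spindle, 2.06. Of these, UTP6 lies in the bin at 30 to 35 Mb, and DDX5 in the bin of lowest median, 1.08 at 60 to 65 Mb. PIGS and SPAG5 lie inside the windows of highest median, to which their own values contribute. Whether position plays a part was not tested. RAD51D and RAD51C, which act in homologous recombination, had values of 2.04 and 1.97, while BRIP1, the helicase partner of BRCA1, had -0.05. For RAD51D the reads were 313, 80, 690 and 18 with HQ461, against 58, 69, 5 and 11 with DMSO. The guide with 690 reads against 5 had a log2 fold change of 7.33, and the next highest 2.93. In RAD51C the highest guide had 61 reads with HQ461, against 1 with DMSO, at 5.34, and the next highest was 2.14. All 4 guides of each gene were above 0. The DMSO medians were 28.7 normalized reads for RAD51D and 13.7 for RAD51C, so both values rest on few DMSO reads.

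Among the 391 genes whose 4 guides each had 30 or more normalized reads with DMSO, 268 were up 2-fold or more, 381 were above 0 and 10 below. Without this minimum, 66.3% of genes of the stretch and 9.01% of all genes were up 2-fold or more. The library share under the minimum was not computed. The 10 highest included DDX5, FMNL1, UNC119, CRYBA1, LGALS9, TNFAIP1, ALDOC, SLC13A2 and PCGF2, with values from 2.53 to 3.49. FMNL1, a formin of blood cells, had 1377, 503, 75 and 751 reads with HQ461, against 118, 74, 84 and 95 reads with DMSO. PCGF2, of the Polycomb repressive complexes, had 712, 1467, 85 and 192 reads with HQ461, against 75, 257, 53 and 67 reads with DMSO. In both genes a guide lay under the others, at 0.36 for FMNL1 and 1.19 for PCGF2.

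The 10 lowest by the same rule were HEXIM1, HEATR6, VEZF1, GOSR2, DCAF7, UBE2Z, SLFN12, KLHL10, BRIP1 and CDC6, with values from -1.61 to -0.03. HEATR6 had 58, 19, 27 and 12 reads with HQ461, against 93, 101, 73 and 40 reads with DMSO. Its guides lay between -1.84 and -0.15, the 1 gene of the stretch with 4 measured guides of which none was above 0. VEZF1, a zinc finger transcription factor, had 22, 130, 181 and 47 reads with HQ461, against 60, 273, 117 and 310 reads with DMSO, for a value of -0.72. GOSR2, a SNARE protein of the Golgi, had 10, 62, 20 and 45 reads with HQ461, against 63, 95, 45 and 57 reads with DMSO, for a value of -0.35. Of the 10, HEXIM1 and HEATR6 were down 2-fold or more, and the other 8 were not.

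The level with DMSO made little difference to the rise. Guides of the stretch with under 30 normalized reads with DMSO had a median log2 fold change of 1.15 over 167 guides, against 0.04 for such guides of other chromosomes. At 30 to 100 reads the medians were 1.35 over 616 guides of the stretch and -0.07 elsewhere. At 100 to 200 reads they were 1.31 over 662 guides and -0.10 elsewhere, and at 200 or more 1.22 over 510 guides and -0.03 elsewhere. The difference was 1.11, 1.42, 1.41 and 1.24 in this order. What changed with the DMSO level was the spread. The SD among guides of the stretch was 2.00 under 30 reads and 0.88 at 200 reads or more, so a gene with few reads, such as UTP6 or TOP2A, is placed with less certainty than ALDOC or HOXB13. Across genes, the DMSO level and the log2 fold change had a Spearman rho of 0.07, as a description.

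Guides without any reads were few. Of the 1960, 15 had 0 reads with HQ461 and 13 had 0 with DMSO, 5 of them in both columns. The 85 genes in the same interval that were left out had a median log2 fold change of 1.46, and 54 of them were up 2-fold or more. Among them, 60 keratin and keratin-associated genes had a median of 1.48, and 4 mitochondrial ribosomal protein genes had a median of -0.05. Keeping all of these gave a median of 1.31 over 575 genes, against 1.30 for the 490.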

How the data were processed

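The values are sgRNA read counts, which the authors deposited without normalization after counting reads with MAGeCK 0.5.9.2, per the labels. The table has 1 column per condition for 2 biological replicates each. The sources used here do not say how they were combined. The table names no guide sequences, and the builds named by the submitters' processing notes are hg38 and GRCh38. Gene positions came from GENCODE 44 on GRCh38, where 17949 symbols were placed directly, 954 through an older RefSeq symbol and 209 not at all, including 26 written as dates. Of the 490 genes described, 469 were placed directly and 21 through an older symbol.

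Counts were scaled by median ratios (size factors 0.833 for HQ461 and 1.20 for DMSO) with Python 3.11.15, numpy 2.4.6, pandas 2.3.3 and scipy 1.17.1. Each guide's log2 fold change had 1 added to both normalized counts, and 273 guides at 0 in both columns gave none. A gene's value was the median over its guides, and 2-fold was the threshold for a call. Since a condition has 1 column, no test was run. The scaling and gene values were checked on simulated data. Ratios of summed counts have exact 95% intervals for counting error.

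Named genes are the 10 highest and 10 lowest with all 4 guides at 30 or more normalized counts with DMSO, the highest and lowest of each gene list, 5 genes on each side of each edge, and 7 chosen by name. Other list members are examples. Some genes that this rule selects are not reported here. The members and lists were chosen with earlier results of these data known. Alternatives included scaling by TMM factors from edgeR 4.0.16.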

Additional observations from a re-analysis of the deposited data

How the results depend on the processing

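For 9 summary values of the stretch under 10 alternatives, 13 of 90 values were identical to the original, nearly all because the alternative does not touch them. Of the other 77, 71 stayed within their spread over genes or guides. Scaling by total reads lowered the median over guides to 0.60 and the share of genes up 2-fold or more to 27.3%, and left 30.2% of genes with all 4 guides above 0. Its construction shifts all values alike, and the difference to other chromosomes was 1.36 under both scalings. Leaving out the top guide of each gene gave 51.8% of genes up 2-fold or more, and in the library 5.21% in place of 9.01%. With summed reads per gene the share was 76.5% and the difference to other chromosomes 1.28, where 18.1% of the library was up (the cause was not tested). Of medians per 5 Mb and per list, the repair and replication genes turned to -0.26 under total reads and to -0.17 without the top guide, and genes of core functions turned to -0.079 under total reads. A further 20 of these medians moved by more than their spread without a change of sign. Without the top guide the bins from 45 to 65 Mb had medians of 0.92, 0.72, 0.97 and 0.69, where genes of other chromosomes had -0.36. The difference between the stretch and other chromosomes was then 1.39.

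In the whole library 520 genes were up and 6138 down under total reads, 996 and 3319 without the top guide, and 3460 and 704 with summed reads, in place of 1722 and 1470. In the stretch they were 134 and 10, 254 and 10, and 375 and 3, in place of 325 and 3. With the minimum of 30 reads, 6 genes of the stretch were down in place of 3, and 482 genes kept a value.

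No paired analysis was possible because each condition's replicates share a single column. Leaving out a replicate, a replicate block and tests with edgeR or DESeq2 were therefore not run. Guides under 30 normalized reads with DMSO limit what can be seen in essential genes.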

Other observations

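Single guides far above the rest of their gene were found in 32 genes of the stretch, taken as a gap of 2 or more on the log2 scale between the highest guide and the next. They are 6.53% of the genes of the stretch, against 11.4% of all genes with 2 or more guides measured, and the examples were picked after the values were seen. NME1_NME2, a read-through of neighbouring nucleoside diphosphate kinase genes, had 350, 6137, 219 and 29 reads with HQ461, against 316, 112, 166 and 106 reads with DMSO. The second guide had a log2 fold change of 6.29, and the next highest 0.92. KIF2B, a kinesin of the spindle, had 353, 350, 5741 and 206 reads with HQ461, against 354, 155, 160 and 70 reads with DMSO. IFT20, of the transport machinery of cilia, had 505, 470, 264 and 4331 reads with HQ461, against 241, 419, 162 and 149 reads with DMSO. EVI2A, a gene within an intron of NF1, had 1048, 66, 709 and 9425 reads with HQ461, against 480, 113, 504 and 715 reads with DMSO.

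At the other end, 4 guides with 30 or more normalized reads with DMSO fell by 3 or more on the log2 scale. They are 0.224% of such guides in the stretch, against 0.933% in the whole library. They belong to EFTUD2, HEXIM1, KANSL1 and IGFBP4. The IGFBP4 guide had 13 reads with HQ461, against 160 with DMSO, whereas the gene's median was 1.33. The KANSL1 guide had 2 reads with HQ461, against 37 with DMSO.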
